A study of Mus musculus with 6 samples.

Results

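Sfmbt2 is a mouse Polycomb group gene on chromosome 2, and one of its introns holds a large tandem array of microRNA genes of the Mir297, Mir466, Mir467 and Mir669 families. The rows described here are all rows of the deposited table that the platform annotation gives to Sfmbt2 or to a microRNA gene of these 4 families. A row is 1 transcript cluster of the array, with 1 value per sample. The rule found 71 of 41345 rows, and because 31 of them repeat the values of another member on every array, 40 distinct rows remained: 1 of Sfmbt2 and 39 of microRNA genes. The gene group was selected on its AA2G minus untreated values, which were already known, while each row entered by its annotation alone. The differences below and the p-values of the fit therefore describe the group and support no pattern independently.

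All samples are from R1, a single line of mouse embryonic stem cells that is male and has the strain background 129X1 x 129S1. The cells were grown for 3 days with 0.74 mM (250 µg/ml) AA2G, a glucoside of ascorbic acid that cells can cleave to vitamin C (3 arrays), or without it (untreated, 3 arrays). All cultures were kept on gelatin in serum with LIF, the cytokine that holds mouse stem cells in self-renewal, and neither group carried a genetic change named in the labels. The values are log2 RMA values of total RNA on Mouse Gene 2.0 ST arrays.

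Sfmbt2 encodes a protein with MBT domains, which bind methylated histone tails, and it works with the DNA-binding factor Yy1 in a Polycomb complex. In extraembryonic tissue the gene is expressed from the paternal allele, and it is needed in trophoblast. MicroRNAs are cut from hairpins in longer transcripts, and an intronic microRNA is normally made from the RNA of its host gene. The first 8 bases of a mature microRNA hold the seed, which pairs with target RNAs.

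By the RefSeq gene order of GRCm38.p6, the 37 distinct microRNA rows other than Mir467f and Mir466i carry only symbols of genes inside Sfmbt2. RefSeq lists 81 genes of the 4 families, 71 of them inside Sfmbt2, and the member rows name 40 of the 81, of which 38 lie inside. The 2 exceptions lie in other genes and on the opposite strand to them: Mir467f on chromosome 11 within Fxr2, an RNA-binding protein gene, and Mir466i on chromosome 13 within Cdk13, a kinase gene. Their mature sequences, with the seed (bases 2 to 8) in capitals, hold runs of alternating A and C. Their seeds differ. RefSeq sequences were matched for 2 of the 40 named microRNA genes.
miR-467f, chr11:69635419-69635439, minus strand of GRCm38.p6: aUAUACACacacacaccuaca
miR-466i-3p, chr13:17747552-17747573, plus strand of GRCm38.p6: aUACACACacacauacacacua

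The region just upstream of Sfmbt2 is shown because it is where transcription of the host gene starts. RefSeq gives 2 start windows of 300 bases, each with 250 bases before the start and 50 after it, and CG dinucleotides, the sites of DNA methylation, are in capitals.
Sfmbt2 window 1, chr2:10370201-10370500, plus strand of GRCm38.p6: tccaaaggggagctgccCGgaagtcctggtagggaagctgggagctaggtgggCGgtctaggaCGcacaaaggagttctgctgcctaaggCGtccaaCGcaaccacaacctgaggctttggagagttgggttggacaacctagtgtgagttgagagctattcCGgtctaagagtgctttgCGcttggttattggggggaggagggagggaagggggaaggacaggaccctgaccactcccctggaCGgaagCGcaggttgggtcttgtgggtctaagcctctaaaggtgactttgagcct
Sfmbt2 window 2, chr2:10372186-10372485, plus strand of GRCm38.p6: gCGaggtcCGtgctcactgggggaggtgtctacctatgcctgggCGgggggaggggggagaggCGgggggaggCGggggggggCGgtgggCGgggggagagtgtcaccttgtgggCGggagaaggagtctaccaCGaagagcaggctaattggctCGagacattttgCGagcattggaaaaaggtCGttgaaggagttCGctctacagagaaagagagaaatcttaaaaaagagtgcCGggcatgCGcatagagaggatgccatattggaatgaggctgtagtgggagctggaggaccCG
Window 1 holds 9 CG dinucleotides and window 2 holds 16, against a median of 7 over 32851 mouse start windows, and 54.2% and 67.0% of those windows hold fewer. The letters TCCCGC, read on both strands, are known as part of the E2F motif. They occur 0 times in window 1 and 1 time in window 2, and 20% of all windows hold them. The E-box CACGTG occurs in neither window, and in 7.2% of all windows.

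Sfmbt2 rose with AA2G. Its row (transcript cluster 17366687) had 5.63, 5.81 and 5.54 in the AA2G arrays, against 4.60, 4.80 and 4.91 in the untreated arrays. The groups do not overlap, and the lowest AA2G array lies above the highest untreated one. The means were 5.66 ± 0.14 with AA2G and 4.77 ± 0.16 without it (SD, n = 3 each), a log2 fold change of 0.89 ± 0.11 (SE) or 1.86-fold, with a 95% interval of 0.62 to 1.16. In the limma fit over all 41345 rows its Benjamini-Hochberg adjusted p was 0.0439. It was the 1 member of 40 past the threshold of 0.05, where 0.317% of all rows passed in either direction, 0.268% as higher and 0.0484% as lower. The call was lost with each array left out, at an adjusted p of 0.139, 0.183 and 0.132 without untreated replicates 1, 2 and 3 and 0.147, 0.161 and 0.129 without AA2G replicates 1, 2 and 3. It was also lost with ordinary per-row variances (limma adjusted p = 0.256). In these 7 fits the log2 fold change lay between 0.81 and 0.96, and within the replicate numbers it was 1.04, 1.01 and 0.63 for numbers 1, 2 and 3.

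Several Mir669 rows were higher on all AA2G arrays, like the host, but no microRNA row passed in limma over all rows. Of the 39 distinct microRNA rows, 0 passed the adjusted threshold, while 13 were higher and 0 were lower at an unadjusted p under 0.05. Across the whole array, 3.89% of rows were higher and 4.01% lower at that level. In 13 of the 39 the 3 AA2G arrays all lay above the 3 untreated arrays, and in 1, Mir297b, they all lay below. Over all rows the groups were separate with AA2G higher in 6.64% and with AA2G lower in 7.29%. The values of 30 of the 39 were positive, against 48.8% of all rows. The median log2 fold change was 0.26 over the 37 rows inside Sfmbt2, and -0.0039 over all rows. Many of these rows probe near-identical repeats, so they share a source and are not independent measurements.

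**Figure D1:**
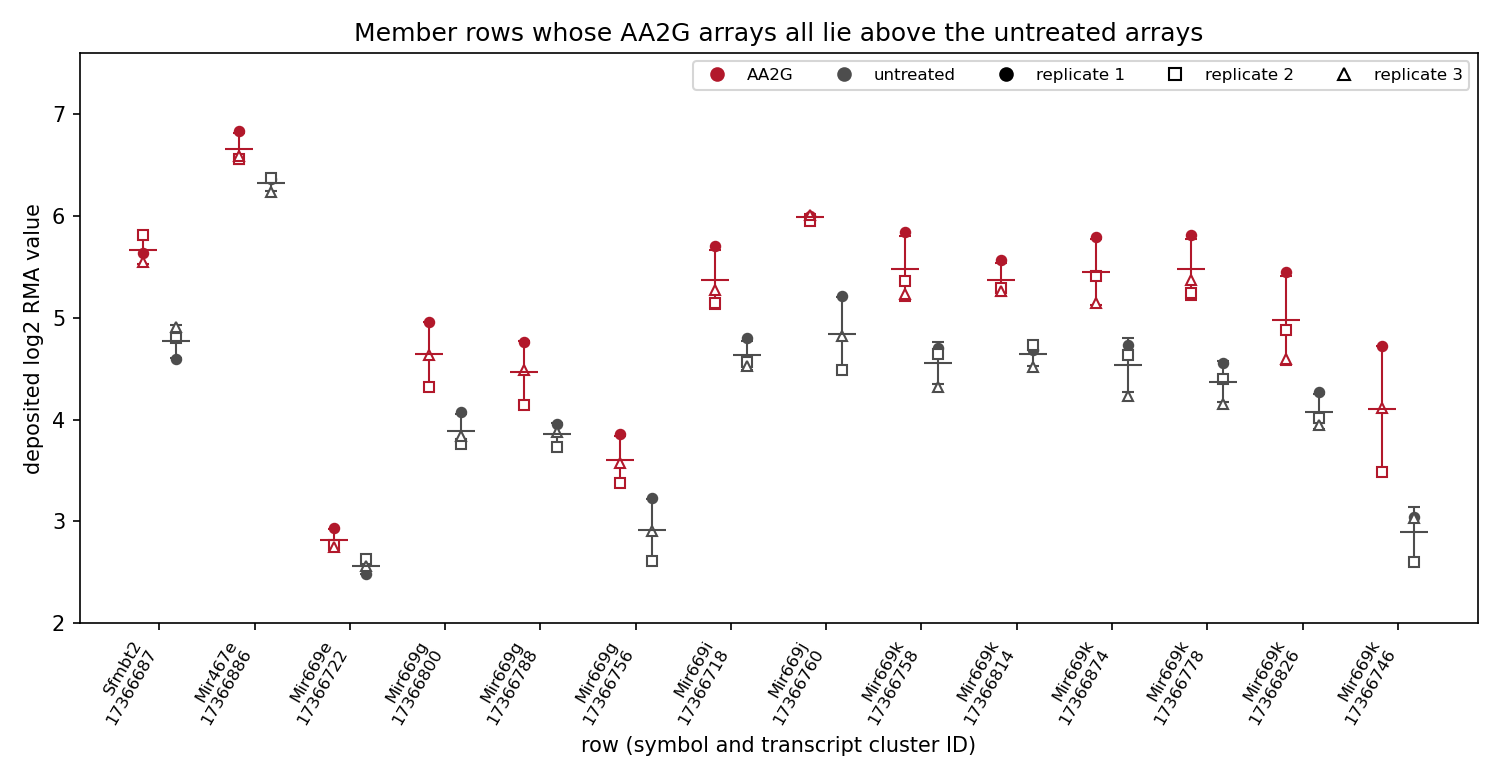
Deposited log2 RMA values (vertical axis) of the 14 member rows whose AA2G arrays all lie above the untreated arrays, with AA2G in red to the left and untreated in grey to the right of each row. Symbols mark the replicate number, and bars the mean ± SD of 3 arrays. AA2G replicate 1 is the highest AA2G array in 12 of the 13 microRNA rows, but not in Sfmbt2.

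The Mir669 family held 12 of those 13 rows. Its 21 distinct rows had a median log2 fold change of 0.61 and ran from -0.26 to 1.21. In all 6 distinct Mir669k rows, all 3 Mir669g rows and the Mir669j row the groups did not overlap. These 10 rows lay between 0.61 and 1.21, or 1.53-fold to 2.32-fold, with a median of 0.91, where Sfmbt2 was at 0.89. They were grouped after their values were seen, so their median is high by choice and is no test of likeness to Sfmbt2. The other 11 Mir669 rows had a median of 0.26. The annotated genes Mir669k, Mir669g and Mir669j lie at places 16, 20 and 21 among the 71 family genes along Sfmbt2. The annotation gives all 6 Mir669k rows to the 1 gene at place 16, and all 3 Mir669g rows to the 1 gene at place 20. The own places of these rows within the repeats are therefore not known, nor whether they lie close together.

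Mir669j (17366760) had 6.0, 5.95 and 6.01 in the AA2G arrays, against 5.21, 4.49 and 4.82 in the untreated arrays. The AA2G arrays are nearly level, and the untreated arrays are spread, with replicate 2 the lowest. The log2 fold change was 1.15 ± 0.17 (SE; limma adjusted p = 0.0826). This row was past the threshold without untreated replicate 1 (adjusted p = 0.0462), with array weights (0.0343), with brighter rows only (0.0420) and among rows with 1 symbol (0.0212). It did not pass in the other alternatives, from 0.0579 with a trended robust prior to 0.348 with ordinary per-row variances. With each of the other arrays left out its adjusted p was 0.145 to 0.311.

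The Mir669k row with the largest difference (17366746) had 4.72, 3.48 and 4.11 in the AA2G arrays, against 3.04, 2.60 and 3.04 in the untreated arrays. Its AA2G arrays are the most spread of the 6 Mir669k rows, with replicate 1 high and replicate 2 low. Its log2 fold change was 1.21 ± 0.30 (SE; limma adjusted p = 0.319).

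The Mir669k row 17366778 had 5.82, 5.24 and 5.37 in the AA2G arrays, against 4.55, 4.40 and 4.16 in the untreated arrays. Row 17366814, whose values a second row repeats, had 5.56, 5.29 and 5.27 in the AA2G arrays, against 4.68, 4.73 and 4.52 in the untreated arrays. Both rows keep a gap between the groups that is wider than the spread within either. Their log2 fold changes were 1.10 ± 0.17 and 0.73 ± 0.11 (SE), with limma adjusted p of 0.0924 and 0.0807. Both passed among rows with 1 symbol (0.0243 and 0.0212) and with brighter rows only (0.0493 and 0.0380). Brighter rows are those with a mean over all 6 arrays above percentile 40 (4.59). Row 17366778 averaged 4.37 untreated, so it entered that filter through its AA2G arrays, and its pass there is no support. With an array left out neither passed (0.140 to 0.314 for 17366778 and 0.164 to 0.303 for 17366814). The other 3 Mir669k rows were at 0.93 (17366758), 0.91 (17366874) and 0.90 (17366826), with adjusted p from 0.197 to 0.300. Row 17366758, which 3 rows of the table share, had 5.85, 5.36 and 5.24 in the AA2G arrays, against 4.70, 4.65 and 4.32 in the untreated arrays. Row 17366826 had 5.45, 4.88 and 4.59 in the AA2G arrays, against 4.27, 4.02 and 3.95 in the untreated arrays. In both, replicate 1 is the highest array of each group and replicate 3 the lowest.

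Of the 3 Mir669g rows, 17366800 had 4.96, 4.32 and 4.64 in the AA2G arrays, against 4.08, 3.76 and 3.84 in the untreated arrays. AA2G replicate 2 lies nearest to the untreated arrays, as it does in the other 2 Mir669g rows. The log2 fold change was 0.75 ± 0.17 (SE; limma adjusted p = 0.267), and the other 2 rows were at 0.69 and 0.61 (adjusted p = 0.360 and 0.350).

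Mir669i, at place 70, has 2 rows. Row 17366718 had 5.70, 5.15 and 5.27 in the AA2G arrays, against 4.80, 4.57 and 4.53 in the untreated arrays, a log2 fold change of 0.74 ± 0.16 (SE; limma adjusted p = 0.222). Row 17366942 had 2.64, 1.94 and 1.85 in the AA2G arrays, against 1.84, 1.54 and 2.07 in the untreated arrays, and its groups overlap. A difference between the 2 rows was not tested. The remaining Mir669 row without overlap was Mir669e (17366722), at place 4. It had 2.94, 2.77 and 2.75 in the AA2G arrays, against 2.48, 2.63 and 2.56 in the untreated arrays, a dim row with a narrow gap between the groups. Its log2 fold change was 0.26 ± 0.09 (SE; limma adjusted p = 0.490).

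The other Mir669 rows overlapped between the groups. Mir669a-3 (17366744) had 5.15, 5.73 and 6.18 in the AA2G arrays, against 5.15, 5.51 and 5.38 in the untreated arrays. Only AA2G replicates 2 and 3 lie above the untreated arrays. The row that carries Mir669a-1, Mir669a-2 and Mir669a-3 together, repeated in 12 rows of the table, had 4.16, 3.98 and 4.54 in the AA2G arrays, against 4.29, 3.98 and 3.63 in the untreated arrays. Mir669m-1 (17366922) had 4.37, 4.14 and 4.79 in the AA2G arrays, against 5.06, 4.51 and 4.52 in the untreated arrays. Its groups overlap through AA2G replicate 3, and its difference was the most negative of the 40 member rows, -0.26 ± 0.21 (SE; limma adjusted p = 0.843).

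**Figure D2:**
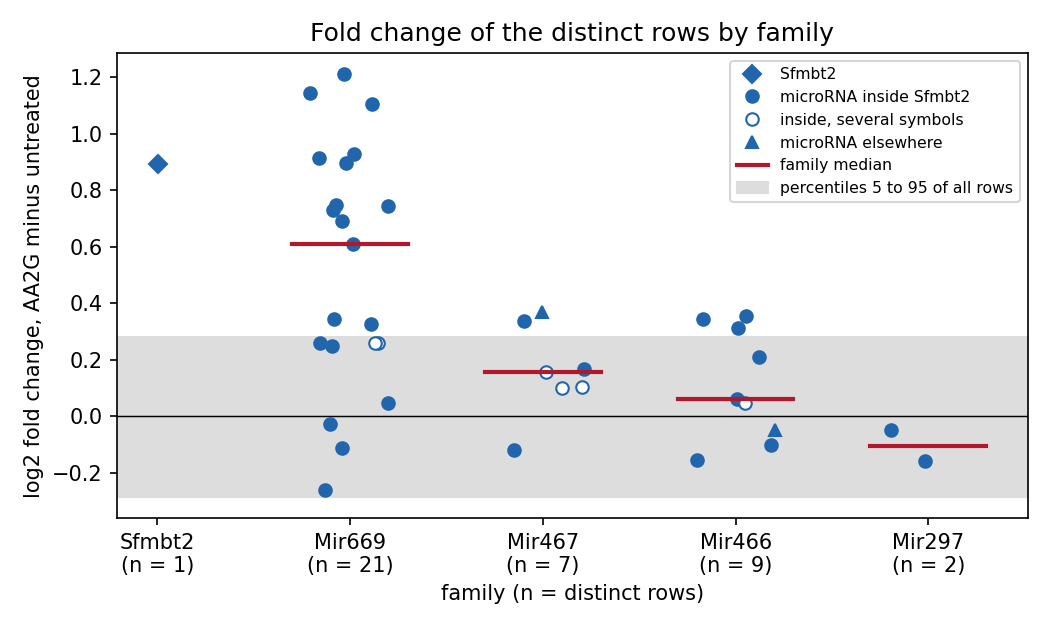
Log2 fold change, AA2G minus untreated (vertical axis), of the 40 distinct rows by family, with 1 point a row, open points for rows with several symbols and triangles for the 2 genes outside Sfmbt2. Red bars are family medians and the grey band spans the percentiles 5 to 95 of all rows (-0.29 to 0.28). Most Mir669 points lie above the band, and most Mir467, Mir466 and Mir297 points lie within it.

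The Mir467, Mir466 and Mir297 families lay closer to 0. The 7 Mir467 rows had a median log2 fold change of 0.16, the 9 Mir466 rows 0.06 and the 2 Mir297 rows -0.10. At an unadjusted p under 0.05 there was 1 row among these 18, Mir467e (17366886). It had 6.83, 6.56 and 6.59 in the AA2G arrays, against 6.36, 6.37 and 6.23 in the untreated arrays, a log2 fold change of 0.34 ± 0.10 (SE; limma adjusted p = 0.421). Its groups are separate but close.

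Mir467c (17366740) had 8.03, 8.22 and 8.26 in the AA2G arrays, against 8.07, 7.95 and 7.99 in the untreated arrays. AA2G replicate 1 lies among the untreated arrays, so the groups overlap (0.17 ± 0.09, SE; limma adjusted p = 0.738). The row of Mir466d and Mir466n (17366918) had 6.64, 6.33 and 6.55 in the AA2G arrays, against 6.43, 6.39 and 6.57 in the untreated arrays, and shows no gap between the groups. Mir297b (17366916) had 4.37, 4.36 and 4.14 in the AA2G arrays, against 4.38, 4.49 and 4.46 in the untreated arrays. It is the member row with all AA2G arrays below the untreated arrays, by a small margin (-0.16 ± 0.09, SE; limma adjusted p = 0.756). Mir466g (17366930), at 1.70 ± 0.15 with AA2G and 1.85 ± 0.29 without it (SD, n = 3 each), lies at the low end of the scale and cannot be told from background.

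The 9 rows of Mir467a, Mir466b and Mir669a all had positive values (0.10 to 0.36) and all overlapped between the groups. They include 5 of the 6 distinct rows with several symbols. A row that reads many copies at once does not show which copy its RNA came from.

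Along Sfmbt2 the signs were not evenly spread, a split that was drawn after the values were seen. All 24 rows whose first listed gene lies at places 1 to 52 had positive values, 12 of them with no overlap. In 2 of these 24, with several symbols, a later gene is also named: the row of Mir669a-1, Mir669a-2 and Mir669a-3 reaches place 58, and rows identical to the Mir467a row 17366750 also name Mir467d at place 54. The 6 Mir669k rows and 3 Mir669g rows, all without overlap, are placed here by their symbol alone. Their own places are not known, so most of the rows without overlap in this stretch have no known place. Of the 10 rows from place 54 to 69, Mir467d to Mir297a-4, 8 were negative and 2 positive, with a median of -0.11. The positive ones were Mir466h (17366932), at 0.31 ± 0.15 (SE; limma adjusted p = 0.693), and the row of Mir466d and Mir466n. Mir466h had 4.5, 4.61 and 4.91 in the AA2G arrays, against 4.14, 4.39 and 4.56 in the untreated arrays, and overlaps at a single array of each group. The 3 rows annotated to Mir669i and Mir669h, genes at places 70 and 71, were positive again, between 0.25 and 0.74. Both Mir669i rows, among them the one at 0.74, are placed by the same symbol, so their own places are not known. Mir669h (17366944) had 5.11, 4.83 and 4.92 in the AA2G arrays, against 4.54, 4.67 and 4.92 in the untreated arrays, where untreated replicate 3 lies among the AA2G arrays.

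**Figure D3:**
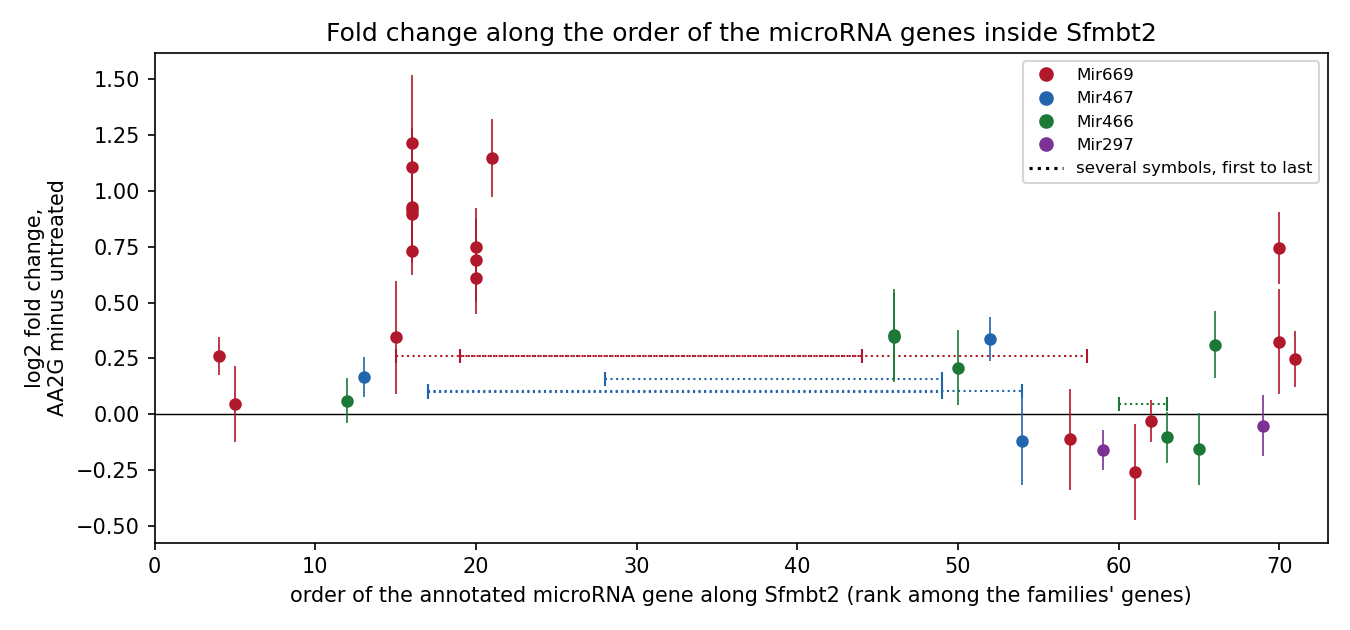
Log2 fold change, AA2G minus untreated (vertical axis, bars are SE of the fit), of the 37 distinct microRNA rows inside Sfmbt2 by the order of their annotated gene among the 71 family genes there (horizontal axis). Dotted lines join the first and last gene of rows with several symbols. The highest point sits at place 16 (1.21), and the negative ones lie between places 54 and 69.

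The 2 genes outside Sfmbt2 did not separate the groups. Mir467f (17264822), whose mature sequence is printed above, had 3.15, 3.36 and 3.19 in the AA2G arrays, against 2.51, 3.39 and 2.68 in the untreated arrays, with untreated replicate 2 above all AA2G arrays (0.37 ± 0.22, SE; limma adjusted p = 0.777). Mir466i (17285454) had 1.69, 1.90 and 1.68 in the AA2G arrays, against 1.92, 1.72 and 1.77 in the untreated arrays (-0.05 ± 0.10, SE; limma adjusted p = 0.952). Both are dim. The genes they lie within had 8.65 ± 0.11 with AA2G and 8.81 ± 0.13 without it for Fxr2, and 9.28 ± 0.05 with AA2G and 9.38 ± 0.05 without it for Cdk13 (SD, n = 3 each), and neither passed. With 2 rows outside Sfmbt2 and 37 inside it, no test of inside against outside was made.

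The array order within the groups differed between the host and the microRNA rows. In 12 of the 13 microRNA rows without overlap AA2G replicate 1 was the highest AA2G array, and in 10 of the 13 untreated replicate 1 was the highest untreated array. In Sfmbt2, AA2G replicate 2 was the highest and untreated replicate 1 the lowest.

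Genes beside Sfmbt2 on the chromosome gave 0 calls in limma, and 0 at an unadjusted p under 0.05. The 3 coding genes before it, Kin, Itih2 and Itih5, and the 3 after it, Prkcq, Pfkfb3 and Rbm17, had log2 fold changes from -0.20 to 0.02 with adjusted p from 0.798 to 0.998. Itih2 had the largest difference of the 6, at -0.20 ± 0.14 (SE).

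Other microRNA genes are given for comparison. Limma called 0 of 576 distinct rows with another microRNA symbol. At an unadjusted p under 0.05, 9 of them were higher and 15 lower, and AA2G lay above untreated in every array for 3.12% of them and below it for 4.86%. Their median log2 fold change was -0.0049. The microRNAs Mir290 to Mir295, Mir302 with Mir367, and Mir17 to Mir92 are known to act in stem cells or in growth. Limma called 0 of 13 rows taken by these symbols, and 0 were at an unadjusted p under 0.05. Their values ran from -0.13 to 0.21, the highest in Mir19b-2, which was taken by its symbol and not by its place. Rows of Mir302 and Mir367 were dim, with means over all arrays from 1.84 to 3.20. The Mir290a row was at 8.68 ± 0.13 with AA2G and 8.81 ± 0.06 without it (SD, n = 3 each).

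Of 11 measured genes for MBT domain proteins, Yy1 and its relatives, 0 passed in limma, with a median of -0.03. When p was not adjusted, 1 was higher and 1 lower at 0.05. The higher one was Scml2, a Polycomb gene of the male germ line, with 5.54 ± 0.35 in the AA2G arrays and 4.29 ± 0.30 in the untreated arrays (SD, n = 3 each, limma adjusted p = 0.124). Its adjusted p was 0.0344 among rows with 1 symbol and 0.148 to 0.404 with an array left out. The lower one was Scmh1, at -0.30 ± 0.10 (SE; limma adjusted p = 0.468). The paralogue Sfmbt1 was at -0.07 and the partner gene Yy1 at -0.03. Of 9 measured genes of microRNA processing, among them those of the hairpin cutters Drosha and Dicer1, 0 passed in limma and 0 were at an unadjusted p under 0.05. Their median was -0.02, and Ago2, the slicing Argonaute, was at -0.14 ± 0.07 (SE).

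Sfmbt2 belongs to a group of genes with parental expression bias in extraembryonic tissue, and of 12 measured genes of that kind 1 rose, 0 fell and 11 did not pass, with a median of -0.03. When p was not adjusted, 2 were higher and 3 lower at 0.05. The riser was Smoc1, a matrix protein gene, which like Sfmbt2 is expressed from the paternal allele there. It averaged 6.80 ± 0.02 in the AA2G arrays and 6.10 ± 0.06 in the untreated arrays (SD, n = 3 each), a log2 fold change of 0.70 ± 0.07 (SE; limma adjusted p = 0.0206). Its call was lost with each of the 6 arrays left out (adjusted p from 0.0817 to 0.129) and with ordinary variances (0.0865). The call was also lost with the replicate number fitted as a block (0.155). Gab1, Slc38a4 and Jade1, which share this kind of imprint, were at 0.02, 0.06 and -0.14. Phlda2, which limits placental growth, was at -0.49 ± 0.08 (SE; limma adjusted p = 0.0902). It passed as lower with a trended robust prior (0.0269), with array weights (0.0497), with brighter rows only (0.0380) and among rows with 1 symbol (0.0279). Phlda2 did not pass with any array left out (0.151 to 0.360) or with ordinary variances (0.196). Cdkn1c, a cell cycle inhibitor gene, was at -0.61 ± 0.11 (adjusted p = 0.157). Igf2r, the receptor gene that clears Igf2, was at 0.39 and Peg10, a retrotransposon-derived placental gene, at -0.32.

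The labelled cell type showed its markers. All 10 stem cell marker genes were measured, with a median level of 10.8 with AA2G and 10.9 without it. Dppa3, the dimmest of them, averaged 5.18 over all arrays, near the median of 5.07 over all rows. Limma called 0 of the 10, and 3 were lower at an unadjusted p under 0.05: Klf4 (-0.31), Nanog (-0.17) and Pou5f1 (-0.16). Summed levels here are log2 values added over the genes of a list. The stem cell sum ran from 96.3 to 96.7 in the AA2G arrays and from 97.3 to 97.6 in the untreated arrays. These sums were separate and lower with AA2G. Of all single rows 7.29% were separate in that direction, which is not the share for sums over several genes. Of 10 measured trophoblast markers, the cell type in which Sfmbt2 is needed, limma called 0, 0 were at an unadjusted p under 0.05, and the median was 0.06. Their summed level ran from 54.5 to 55.9 in the AA2G arrays and from 54.7 to 55.6 in the untreated arrays and overlapped. The 9 primitive endoderm, 7 fibroblast, 3 mesoderm and 3 neuroectoderm markers that were measured also gave 0 calls, with medians of -0.13, -0.01, -0.11 and -0.05. In all 4 lists together 2 genes were lower and 0 higher when p was not adjusted. The primitive endoderm sum ran from 46.99 to 47.25 in the AA2G arrays and from 47.5 to 48.55 in the untreated arrays, and the mesoderm sum from 15.6 to 15.7 in the AA2G arrays and from 15.9 to 16.2 in the untreated arrays. Both were separate and lower with AA2G. The fibroblast sums (33.2 to 34.1 with AA2G, 33.6 to 33.9 without it) and the neuroectoderm sums (16.1 to 16.6 with AA2G, 16.3 to 16.8 without it) overlapped. Among the 9 primitive endoderm genes 4 were positive and 1 was lower at an unadjusted p under 0.05, and among the 3 mesoderm genes 0 were lower at that level. How often sums of other gene lists separate was not tested. The part of these marker differences in the Sfmbt2 result was not tested. In bulk samples fewer cells of a type and less RNA per cell cannot be told apart.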

How the data were processed

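Per the labels' protocols, total RNA was isolated on RNeasy Mini columns, which mainly retain longer RNA, and labelled for whole-transcript arrays. The deposited log2 values are the authors' RMA values, made in Affymetrix Expression Console as the submitters' processing notes state. For the genome build, versions and filters, the sources used here give nothing. Array medians lay between 5.06 and 5.10. Quantile normalization, a step of RMA, hides a change in total RNA. No detection calls were used, so dim rows may be background. Precision depends on the number of arrays and on the spread of each row. Host intron RNA, hairpins and mature microRNA cannot be told apart in a microRNA row.

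AA2G was compared with untreated cells over all 41345 rows in R 4.3.3 with lmFit and eBayes of limma 3.58.1 (two-sided, no covariate), Benjamini-Hochberg adjustment and a threshold of 0.05. Named members are Sfmbt2, rows past the threshold, the 8 smallest p, the 5 brightest, the 3 largest differences each way and the genes outside Sfmbt2. The other named member rows, and Sfmbt1, Yy1, Drosha, Dicer1, Gab1, Slc38a4, Jade1, Peg10, Pou5f1 and Dppa3, were added after their values were seen. For lists, up to 4 genes with the smallest p were to be named, which was not done in full: L3mbtl3, L3mbtl2, Ago4 and Xpo5 were left out. The members, lists and rules were chosen with earlier results of these data known. The submitters call the 3 replicates independent without saying how, so p-values may cover technical spread alone, and with 3 arrays in each group the smallest p of an exact permutation test is 0.1. RefSeq tables of GRCm38.p6 gave gene order and sequences. The procedure was tested on simulated data. Alternatives were other normalization, variance, weighting, filter and block settings and each array left out.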

Additional observations from a re-analysis of the deposited data

How the results depend on the processing

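The direction of the Sfmbt2 difference was the same in all 15 alternatives, and its call was kept in 7 and lost in 8. The 25 named microRNA rows kept their direction and side of the threshold in 348 of 359 comparisons with an alternative, passed in 8 and changed sign in 3. The sign changes were in dim or flat rows: Mir466g was at 0.0085 with array weights, and with an array left out Mir466d with Mir466n lay between -0.021 and 0.13 and Mir466i between -0.12 and 0.012. The cause was not tested. The 131 calls over all rows became 39 to 62 with an array left out, where fewer samples were fitted, and 5 with ordinary per-row variances. Members called were 2 with array weights (0.404% of all rows called), 4 with brighter rows only (0.681% of 24807 rows), 4 of 34 tested among rows with 1 symbol (0.761% of 23521 rows), 0 with ordinary variances, and 0 to 1 with an array left out. The Sfmbt2 log2 fold change was 0.89 with ordinary variances (adjusted p = 0.256 in limma's fit without moderation) and 0.81 to 0.96 with an array left out. With brighter rows only, 12 of 40 members were tested and the median inside Sfmbt2 was 0.73, while the genes outside Sfmbt2 were too dim to give a value. That filter took the mean of both groups, with a cutoff of 4.59. The Mir669k rows 17366758, 17366778 and 17366874 had untreated means of 4.56, 4.37 and 4.53, so they entered through their AA2G arrays. The count of 4 and the median of 0.73 are partly set by this filter and are no support.

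The replicate number of the labels was also fitted as a block in limma. Deviations from the group means correlated at 0.10, 0.10 and -0.0004 for numbers 1, 2 and 3. The samples of numbers 1 and 2 correlated best with their own number, and those of number 3 did not. Whether samples of the same number were paired was not tested. With the block 29 rows and 0 members were called, and Sfmbt2 was at 0.89 (limma adjusted p = 0.198).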
